A study of Mus musculus with 6 samples.

Results

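Antisense RNA genes are annotated noncoding genes that lie on the strand opposite to another gene. The 106 described here are the autosomal genes of that annotated type that reached 5 CPM (the usual count-per-depth unit, a gene's count relative to its library's total count) in all 3 libraries of at least one group. They were chosen by these levels from 2780 autosomal antisense genes in a table of 52143 genes, and 1 further gene at the level, Tug1, was left out by name. RNA was measured in mouse rod photoreceptors on postnatal day 10. Retinas were electroporated on postnatal day 0 with an Nrlp-EGFP reporter, in which the promoter of the rod gene Nrl drives EGFP, together with either a scrambled pLKO.1 vector (control, n = 3) or a vector for 1 shRNA against Jun (Jun knockdown, n = 3). EGFP-positive cells were then sorted. The labels name no animals or pools behind a replicate, so p-values reflect variation among these 6 libraries, which may be technical.

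Antisense transcripts can interfere with transcription of the gene they face, recruit chromatin modifiers or pair with its RNA, and many are short-lived because the nuclear exosome degrades them. Such genes are common near promoters and 3′ ends of coding genes. The best studied mouse examples are Kcnq1ot1 and Airn, which are made from the paternal chromosome and silence neighbouring imprinted genes. Vax2os is an antisense gene of the retina, beside the eye patterning factor Vax2.

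Facts of the libraries as a whole touch every comparison below. Total counts were 32150100 to 105801000 in the controls and 13211300 to 13998400 in the libraries labelled Jun knockdown. Jun itself was at 6.46, 5.86 and 7.16 CPM in the controls and at 1.80, 17.6 and 19.3 in the libraries labelled Jun knockdown, scaled by trimmed mean of M-values (TMM, which sets libraries to a common level over most genes). In 2 of the 3 labelled libraries it was above every control (exact permutation test of the groups, two-sided, p = 0.4), so the group is called by its label throughout. The 10 rod markers summed to 105600 to 119600 TMM-scaled CPM in the controls and 9515 to 12520 in the labelled libraries, with 10 of 10 not overlapping between groups and 8 of 10 called lower. The 7 microglia markers summed to 746 to 1018 against 1.53 to 3.65, and the 5 vascular and blood markers to 138 to 288 against 2.19 to 3.90, with Hba-a1 at 0 in every labelled library. The 6 Müller glia markers summed to 527 to 748 against 135 to 268, the 6 cone markers to 2065 to 6087 against 812 to 1549, and the 6 bipolar markers to 352 to 520 against 466 to 824. Without overlap, 3 Müller glia and 2 cone markers were lower. The bipolar markers were split, with 3 higher and 1 lower without overlap and 1 called in each direction. Prkca, 1 of the 6 bipolar markers, was at 7.94 to 24.2 against 156 to 313. Retained-intron transcripts held 2.78 to 3.56% of counts in the controls and 7.84 to 9.63% in the labelled libraries. The part of these differences in the antisense results was not tested, and in bulk RNA fewer cells of a type cannot be told apart from less RNA per cell.

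Of the 106 genes, 34 reached 5 CPM in both groups, 52 only in the libraries labelled Jun knockdown and 20 only in the controls. The choice of the last 2 sets favours a difference in the direction that chose them, so their counts are given as a description and support nothing. The direction was not fully forced: of the 20 genes, 3 had a higher fitted level in the labelled libraries. All 52 genes chosen through the labelled libraries had a higher fitted level there. Just inside the level, AC061963.1 had a lowest library of 5.07 CPM in its group, AC154766.4 of 5.08 and A930016O22Rik of 5.13. Just outside it, Gm37850 reached 4.96 CPM in its lowest labelled library, 4921504A21Rik 4.76 in its lowest control and Gm16104 4.49. The 106 genes lay on all 19 autosomes. Predicted or clone-type names were carried by 93 of them, which means that no function is recorded in the name.

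The position of each gene was compared with the longest-overlapping protein-coding gene on the other strand, here called its partner. Of the 106 genes, 46 (43.4%) lay inside the partner, 27 (25.5%) covered its start, 24 (22.6%) covered its end, 2 spanned it and 7 overlapped no coding gene. Among all 2780 autosomal antisense genes the shares were 54.1% inside, 20.6% over a start and 14.1% over an end. In 14 pairs the 2 starts lay within 1000 bases of each other. The 7 genes with no partner each began facing away from the start of a coding gene on the other strand, and in 5 the gap was 16 to 161 bases: 2810001G20Rik lay 16 bases from Cox10, Med9os 64 from Med9, Bloc1s6os 141 from Bloc1s6, 1810013D15Rik 143 from Cth and Gm13977 161 from BC052040. Exonic length ran from 99 to 93092 bases with a median of 1828.5. The longest was Kcnq1ot1.

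The libraries were made with SMART-seq v4 and Nextera XT, which keep no strand, so reads from exons that overlap on both strands cannot be assigned to one. Exons of the antisense gene and of its partner did not overlap in 30 of 99 pairs and overlapped over more than 30% of the antisense gene's exonic bases in 22. As a measure of what a short-read count can separate, the 31-base words of each antisense gene were searched in all other annotated transcripts on both strands. A median of 87.1% of words occurred in no annotated transcript of another gene. The share passed 90% in 47 genes and was below 50% in 18. Gm27177 had no word of its own and Gm47738 had 0.109%, so the counts of these 18 genes in particular are uncertain. Introns were searched only where an annotated transcript holds them, and 46 genes lay inside their partner. Some genes over a start or an end also lay mostly within it, such as D030047H15Rik (97.9% of its span) and Uckl1os (95.8%). Unspliced RNA of the partner can therefore hold words counted here as a gene's own, so a high share does not show that a count is separate.

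**Figure D1:**
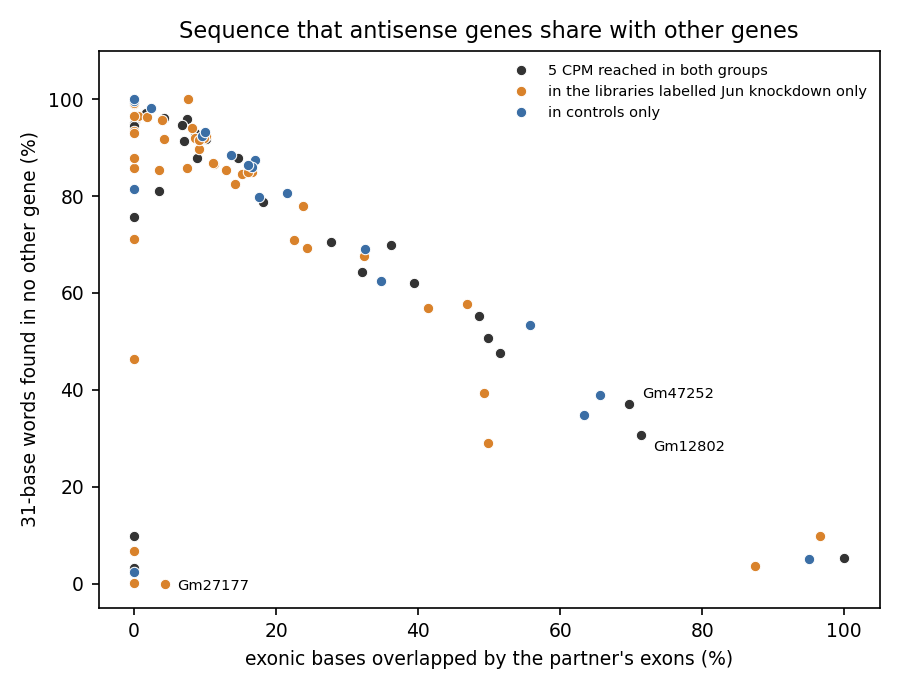
Share of 31-base words found in no other gene's annotated transcripts (y axis, %) against the share of exonic bases overlapped by the partner's exons (x axis, %). There is 1 point for each of the 99 genes with a partner, coloured by the group in which the level was reached. Genes with more overlap keep fewer words of their own, and a few genes at 0% overlap also keep few.

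The sequences below are each a 100-base stretch of which every 31-base word occurs in no other annotated transcript, read from the GENCODE mouse M21 transcripts (GRCm38). They are given for the 3 genes past the threshold and Kcnq1ot1. The Gm47252 stretch lies within the span of Samd11 and the Kcnq1ot1 stretch within that of Kcnq1. Unspliced RNA of these partners can hold the same letters, so those 2 stretches do not identify the antisense gene alone. Capitals mark the first 31-base word. The stretches lie at chr4:156254729-156254828 (plus strand), chr7:4136827-4136926 (minus), chr2:122738263-122738362 (minus) and chr7:143296450-143296549 (minus).

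Gm47252: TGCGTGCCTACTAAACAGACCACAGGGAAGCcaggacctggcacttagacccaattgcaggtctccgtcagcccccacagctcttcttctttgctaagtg
D030047H15Rik: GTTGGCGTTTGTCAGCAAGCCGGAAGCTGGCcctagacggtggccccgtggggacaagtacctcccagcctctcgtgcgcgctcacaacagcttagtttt
Bloc1s6os: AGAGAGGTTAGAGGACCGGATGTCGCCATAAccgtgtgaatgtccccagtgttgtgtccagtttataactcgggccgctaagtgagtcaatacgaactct
Kcnq1ot1: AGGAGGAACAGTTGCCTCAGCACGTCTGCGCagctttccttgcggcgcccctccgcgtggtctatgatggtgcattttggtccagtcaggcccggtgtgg

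Autosomal antisense genes took a larger share of the libraries labelled Jun knockdown. All 2780 genes together held 0.543%, 0.482% and 0.599% of the counts of the 3 control libraries and 1.09%, 1.16% and 1.12% of the counts of the 3 labelled ones. The groups did not overlap. The mean was 0.541 ± 0.0582% (SD, n = 3) against 1.13 ± 0.0382% (n = 3), 2.08 times as high, with an exact permutation p of 0.1, the smallest that 3 against 3 libraries can give. The 2674 antisense genes that are not among the 106, which the level rule did not pick, were 2.17 times as high. On TMM-scaled values the ratio over all antisense genes was 1.48 and that of the 2674 genes 1.54. Autosomal lincRNA genes, another noncoding class, were 2.73 times as high as a share of counts. The coding partners of the 106 held 0.647 ± 0.0534% of counts in the controls and 0.688 ± 0.0676% in the labelled libraries, a ratio of 1.06 that became 0.754 on TMM-scaled values.

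**Figure D2:**
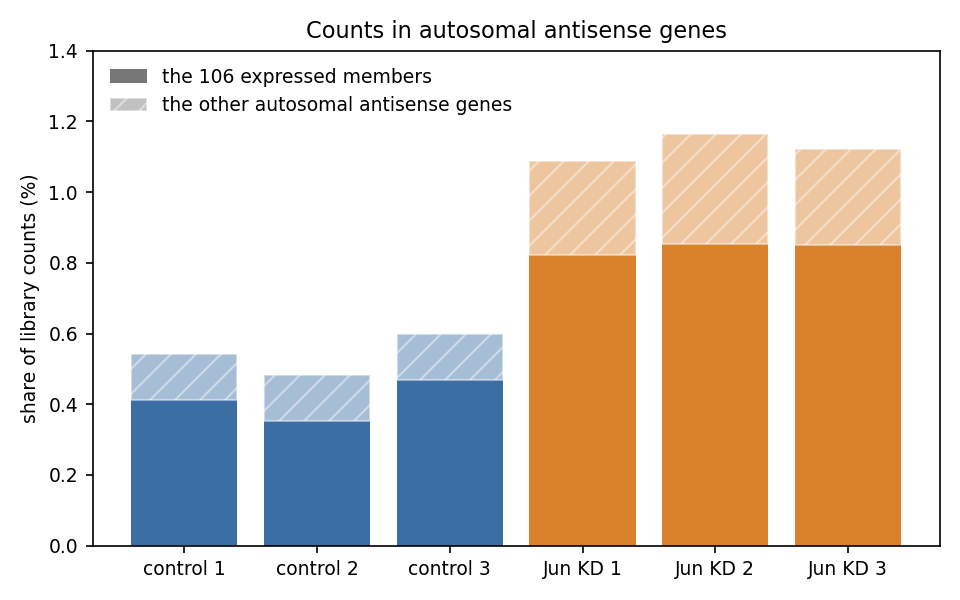
Share of each library's counts in autosomal antisense genes (y axis, %), 1 bar per library, with the 106 expressed genes in solid colour and the other 2674 hatched. The 3 labelled libraries stand at 1.09 to 1.16% and the 3 controls at 0.482 to 0.599%.

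All 106 genes were tested in a fit over 12815 genes (edgeR's quasi-likelihood test with Benjamini-Hochberg adjustment, called at 0.05), in which 1.67% of tested genes were called. Of the 106, 3 were called: Gm47252 and Bloc1s6os rose and D030047H15Rik fell. At an unadjusted p under 0.05 there were 20 (18.9%), near the 16.8% of all tested genes. DESeq2 called 17 of 104 genes with an adjusted p, where 12.1% of all genes it adjusted were called, and limma-voom called 8, where 3.45% of all tested genes were. Of the 34 genes at the level in both groups, DESeq2 called 1 and limma-voom 2, so most of these calls were of genes chosen through 1 group alone. TMM-scaled levels did not overlap between groups in 56 of the 106 genes, 43 higher and 13 lower in the labelled libraries, where 28.3% of all tested genes did not overlap. Since 72 of the 106 reached the level in 1 group only, this count was partly fixed by the choice of members. Among the 34 genes that reached it in both groups, 10 did not overlap (7 higher, 3 lower), 1 was called, and the median log2 fold change was 0.05. The median was 0.93 over the 106 genes, 1.33 over 276 other tested antisense genes and −0.12 over all tested genes. The 0.93 was partly fixed by the choice of members. It was 2.543 over the 52 genes chosen through the labelled libraries only and −1.485 over the 20 chosen through the controls only. The 276 genes passed a filter on level that expression in 1 group can satisfy, so their median is a description too.

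Gm47252, a gene inside Samd11 on chromosome 4, was called with the smallest adjusted p of the 106 genes. It stood at 41.5, 61.0 and 80.5 TMM-scaled CPM in the controls and at 829, 993 and 723 in the labelled libraries. Every labelled library was above every control, and the means were 61.0 ± 19.5 and 848 ± 136 (log2 fold change 3.80, SE 0.44, edgeR adjusted p = 0.00527). The call held in every alternative run, with adjusted p up to 0.0426 when a library was left out. Only 37.0% of its 31-base words were its own, and the other 63.0% occurred in Samd11. Samd11, a regulator expressed in photoreceptors, was at 130, 395 and 115 in the controls and at 143, 249 and 120 in the labelled libraries, so its groups overlapped (log2 fold change −0.32, edgeR adjusted p = 0.829).

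D030047H15Rik, which covers the end of Ttyh1 on chromosome 7, was at 83.0, 32.0 and 122 TMM-scaled CPM in the controls. In the labelled libraries it was at 0.257, 0 and 0.125. The groups did not overlap, and the gene fell by 9.18 on the log2 scale (SE 1.76, edgeR adjusted p = 0.0431). Its 2536 exonic bases kept 92.5% of words as their own. Of its span, 97.9% lay within Ttyh1, and the libraries keep no strand. Unspliced Ttyh1 RNA can therefore hold some of these words, and the share does not show a separate count. The call was lost without any single library (adjusted p 0.071 to 0.155), as well as with scaling by library totals (0.0585), by the upper quartile (0.0553) or after thinning to the smallest total (0.0517). Ttyh1, which encodes a tweety family membrane protein, was at 220, 411 and 387 in the controls and at 5.87, 82.1 and 51.2 in the labelled libraries, with no overlap (log2 fold change −2.87, SE 0.88, edgeR adjusted p = 0.141).

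Bloc1s6os, on chromosome 2, is one of the genes without a partner and had 100% of its words as its own. Its controls held 0, 0.0117 and 0 TMM-scaled CPM and its labelled libraries 18.8, 21.1 and 10.3. The groups did not overlap, and the gene was called (edgeR adjusted p = 0.0454). With 1 count in the controls against 807, the ratio of counts per library total was 3667, with an exact 95% interval of 656.3 to 145000 that covers counting error only. The call held under each other scaling, but not after thinning (adjusted p 0.0728) or without any single library (0.108 to 0.184). Both D030047H15Rik and Bloc1s6os were chosen by a level reached in 1 group only, so their p-values describe values that also chose them. Bloc1s6, a subunit of a complex for lysosome-related organelles that begins 141 bases away, was at 14.9, 76.7 and 64.6 in the controls and at 0.122, 26.5 and 46.0 in the labelled libraries, where the groups overlapped (log2 fold change −1.10, edgeR adjusted p = 0.757). Gm38250, which DESeq2 and limma-voom called and edgeR did not (adjusted p = 0.0649), is of the same kind in the other direction. It held 2528 counts in the controls and 3 in the labelled libraries, a ratio of 185.4 (63.38 to 899.9).

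The most abundant of the 106 genes was AI847159, which overlaps no coding gene. It was at 1430, 893 and 1217 TMM-scaled CPM in the controls and at 1534, 1268 and 1422 in the labelled libraries, with overlapping groups (log2 fold change 0.25, edgeR adjusted p = 0.673). Gt(ROSA)26Sor, the transcript of the ROSA26 locus, was at 358, 128 and 224 against 482, 288 and 1004, a higher range that still overlapped (log2 fold change 1.32, edgeR adjusted p = 0.289). Uckl1os, antisense to the uridine kinase gene Uckl1, was at 165, 259 and 358 against 445, 285 and 346 (adjusted p = 0.636). Its partner Uckl1 was at 646, 1243 and 680 against 10.5, 241 and 388, and its groups did not overlap (log2 fold change −2.00, edgeR adjusted p = 0.326). Pitpnm2os2 was at 54.5, 62.3 and 75.0 against 209, 100 and 163, with no overlap (log2 fold change 1.30, edgeR adjusted p = 0.335). Overlap depended on the scaling. As CPM without TMM, AI847159 was at 760 to 1128 in the controls and 1553 to 1705 in the labelled libraries, without overlap. Gt(ROSA)26Sor and Uckl1os did not overlap on that scale either.

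Some abundant genes were lower in the labelled libraries. AC110166.1, inside the myosin light chain kinase gene Mylk, was at 368, 481 and 522 in the controls and at 79.7, 211 and 102 in the labelled libraries. Its groups did not overlap, and the difference did not pass the threshold (log2 fold change −1.80, SE 0.50, edgeR adjusted p = 0.107). Mylk itself was at 25.6, 51.5 and 16.0 against 38.4, 117 and 37.6, which overlapped (log2 fold change 1.05, edgeR adjusted p = 0.625). Gm12802, over the end of Tceanc2, was at 421, 316 and 334 against 232, 270 and 263 with no overlap, but it kept only 30.7% of its words and its log2 fold change of −0.49 turned to 0.03 on library totals (edgeR adjusted p = 0.563). Gm26954, inside the presynaptic scaffold gene Pclo, differed little (222 ± 48.1 against 184 ± 58.7, edgeR adjusted p = 0.815), and its sign changed under 3 alternatives. Gm16062 and A930001M01Rik overlapped between groups with adjusted p of 0.836 and 0.695.

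Gm10558, inside Map2 (the neuronal microtubule protein gene), was at 104, 25.0 and 30.4 against 237, 303 and 244. Every labelled library exceeded every control, with a log2 fold change of 2.30 (SE 0.70, edgeR adjusted p = 0.139). Limma-voom called it. Map2 was at 306, 399 and 237 against 1023, 336 and 629, so its groups overlapped (log2 fold change 1.08, edgeR adjusted p = 0.293). Among the lower-level genes reaching 5 CPM in both groups, Gm42067 (log2 fold change 1.78) and Gm4419 (1.66) did not overlap between groups and were higher in the labelled libraries, and Gm47428 (−1.19) did not overlap and was lower, while CAAA01189291.2 (−0.74) and Hk1os (−0.98) overlapped. None of these 5 was called, and the adjusted p ran from 0.394 to 0.791.

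**Figure D3:**
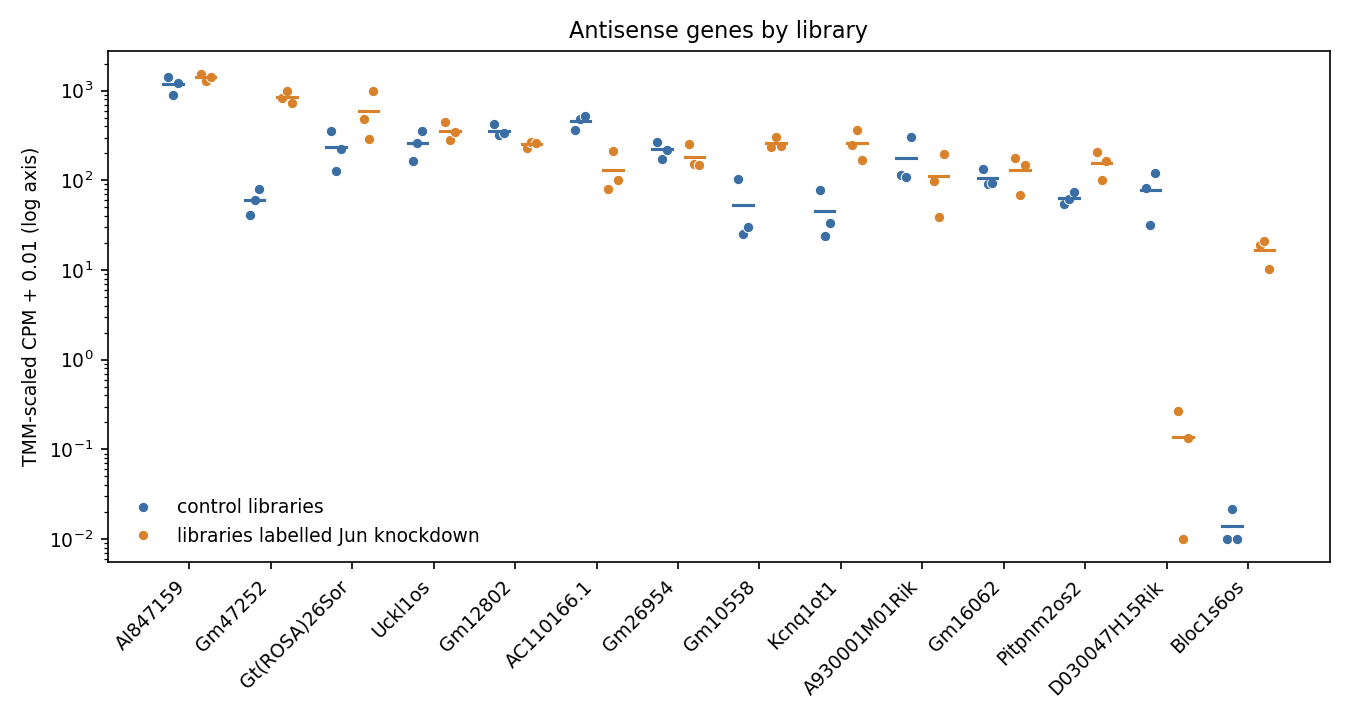
TMM-scaled CPM + 0.01 (log axis) of 14 antisense genes, 1 point per library and a line at the group mean, for the 12 most abundant genes and the 2 other genes past the threshold. Gm47252, D030047H15Rik and Bloc1s6os separate the groups most, and AI847159 stays between 893 and 1534 in all 6 libraries.

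The 2 imprinted antisense genes were both among the 34. Kcnq1ot1 was at 77.4, 24.2 and 33.8 TMM-scaled CPM in the controls and at 249, 367 and 168 in the labelled libraries. The groups did not overlap, and the difference did not pass the threshold (log2 fold change 2.53, SE 0.68, edgeR adjusted p = 0.0954). Kcnq1, the potassium channel gene whose strand it faces, was at or below 0.163 in every library, and Kcnq1ot1 kept 95.5% of its words. Airn was at 13.3, 7.71 and 25.6 against 61.5, 15.9 and 46.3, which overlapped (log2 fold change 1.41, edgeR adjusted p = 0.575), and its partner Igf2r, the mannose-6-phosphate receptor gene, was at 0 to 1.84 against 0.159 to 5.34.

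The promoter window of Kcnq1ot1, 250 bases before to 50 after the annotated start, held 9 CG dinucleotides, where the median over all windows in the RefSeq table (GRCm38.p6) was 7 and that of the members' windows 9. It lies at chr7:143296498-143296797 on the minus strand and is shown with each CG in capitals, since this is the imprinted start site of the pair.

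Kcnq1ot1 promoter: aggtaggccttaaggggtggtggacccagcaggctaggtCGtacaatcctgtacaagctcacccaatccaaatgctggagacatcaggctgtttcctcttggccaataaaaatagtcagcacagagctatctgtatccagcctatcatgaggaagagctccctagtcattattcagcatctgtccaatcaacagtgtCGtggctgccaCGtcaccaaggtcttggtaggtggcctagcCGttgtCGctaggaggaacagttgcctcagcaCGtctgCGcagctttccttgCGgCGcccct

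Jun is a subunit of AP-1, so the windows were searched on both strands for the AP-1 element TGANTCA. It occurred in 4 of 76 windows of 60 members matched by symbol (5.26%) and in 7.81% of 32851 windows in the table. The photoreceptor homeobox core TAATCC was in 10.5% of member windows and 7.06% of all windows, and the cyclic AMP response element TGACGTCA in 1.32% and 1.79%. A match is a description of letters only.

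Vax2os was at 89.4, 72.1 and 71.4 TMM-scaled CPM in the controls and at 26.9, 23.2 and 2.16 in the labelled libraries. The groups did not overlap (log2 fold change −2.16, SE 1.12, edgeR adjusted p = 0.362), and the gene was chosen through the controls alone. Its partner Vax2 was at 13.8, 0 and 15.5 against 0.334, 4.42 and 0.278, with overlap (adjusted p = 0.612). Rab10os (72.3 ± 36.5 against 37.7 ± 44.9), Atad3aos (10.3 ± 6.99 against 19.6 ± 5.44) and Ccdc142os (33.3 ± 19.7 against 38.6 ± 65.6) overlapped between groups. Snhg9, the snoRNA host gene facing the ribosomal protein gene Rps2, was at 1.91, 3.42 and 9.59 against 10.1, 11.8 and 11.5, with no overlap (log2 fold change 1.16, edgeR adjusted p = 0.712). Rps2 fitted at −6.03 (adjusted p = 0.0564), and as a ribosomal protein gene with many near-identical copies its count is uncertain.

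Of the 98 distinct partners, 73 were tested, and 2 were called, where 1.67% of all tested genes were. Ywhaq, a 14-3-3 protein gene, was at 1800, 1195 and 1358 in the controls and at 431, 365 and 380 in the labelled libraries, and fell by 1.89 on the log2 scale (SE 0.30, edgeR adjusted p = 0.0224). Its antisense gene Gm4419, over the start of Ywhaq, was at 7.02, 9.63 and 16.2 against 21.2, 51.7 and 30.6, without overlap (edgeR adjusted p = 0.511). Prkca, the protein kinase C alpha gene that also marks rod bipolar cells, was at 24.2, 7.94 and 16.1 against 184, 156 and 313 (log2 fold change 3.76, SE 0.76, edgeR adjusted p = 0.0468). Its antisense gene Gm11655 lies inside Prkca and overlaps none of its exons. Gm11655 was at 0, 3.00 and 0.940 against 21.7, 20.4 and 9.99, without overlap (log2 fold change 3.72, edgeR adjusted p = 0.386). The libraries keep no strand, so Gm11655 reads cannot be told apart from those of unspliced Prkca RNA. Without any 1 library the Prkca call was lost (adjusted p 0.0864 to 0.163), and of the runs with 5 libraries the Ywhaq call held only in that without control replicate 2 (0.0494, otherwise 0.0566 to 0.112). Ywhaq was also not called by DESeq2 (adjusted p 0.132) or limma-voom (0.0684), or in edgeR with library totals (0.0575), the upper quartile (0.0563) or thinning (0.0517). Of the tested partners 15 had an unadjusted p under 0.05 (20.5%, against 16.8% of all tested genes). DESeq2 called 8 of 77 with an adjusted p (10.4%, against 12.1% of all genes it adjusted) and limma-voom 3 of 73 (4.11%, against 3.45%). Levels did not overlap in 22 of the 73 tested partners (30.1%, against 28.3% of all tested genes), 7 higher and 15 lower in the labelled libraries. These shares were near those of all genes.

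The signs of an antisense gene and its partner were mixed. Of 74 pairs with both genes tested, 21 had a positive log2 fold change in both, 14 a negative one in both, 27 were positive for the antisense gene and negative for the partner, and 12 the reverse. Across the 74 pairs the Pearson correlation of the 2 log2 fold changes was 0.0791 and Spearman's rho 0.0651, a description over pairs that share all 6 libraries. Among the 26 pairs whose antisense gene reached the level in both groups, 11 had the same sign and 15 opposite signs. The partners' median log2 fold change was −0.39, and it turned to 0.21 when only library totals were used.

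**Figure D4:**
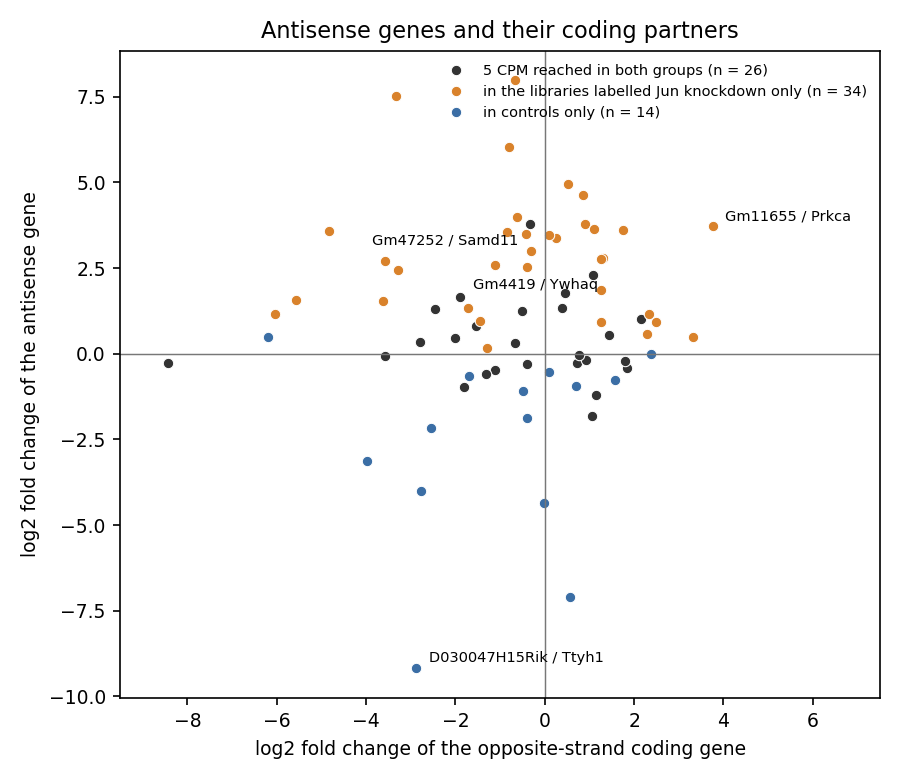
Log2 fold change of each antisense gene (y axis) against that of its coding partner (x axis), Jun knockdown label minus control, for 74 pairs with both genes tested, coloured by the group in which the antisense gene reached the level. The points spread through all 4 quadrants, and the vertical separation of the colours follows from how the genes were chosen.

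Levels of the 2 genes of a pair were compared per length, as TPM computed from the transcript counts and annotated lengths, a count per length scaled to the same total in each library. The antisense gene was above its partner in 56 of 99 pairs by the control means and in 74 by the labelled-library means. Both counts were partly fixed by the choice of members on antisense level, with more genes chosen through the labelled libraries alone than through the controls alone, so no change is read from them. Among the 33 pairs whose antisense gene reached the level in both groups, the counts were 22 and 27, which were not tested. Of the 99 pairs, the antisense gene was above in all 6 libraries in 35 and below in all 6 in 11. Among the 41 pairs with over 90% of the words unique to the antisense gene, 14 were above in all 6. These counts were also partly fixed, since a level was required of the antisense gene and not of its partner. Kcnq1ot1 was at 0.356 to 1.03 TPM in the controls and 2.58 to 7.35 in the labelled libraries, and Kcnq1 did not exceed 0.240.

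The nuclear exosome and its cofactors degrade many antisense RNAs, so 22 genes of that pathway were examined as a list. Of the 21 tested, 2 were called, 1 in each direction, where 1.67% of all tested genes were. The median log2 fold change of the 21 was −0.44, near the −0.32 over tested protein-coding genes, and −0.12 was the median over all tested genes. Zfc3h1, the zinc-finger scaffold of the poly(A) tail exosome targeting connection, was at 102, 95.6 and 64.2 TMM-scaled CPM in the controls and at 962, 611 and 373 where the label is Jun knockdown (log2 fold change 2.89, SE 0.49, edgeR adjusted p = 0.0292). Exosc5, a core exosome subunit, was at 56.6, 56.0 and 68.4 against 0.388, 0.266 and 0.314 (log2 fold change −7.46, SE 1.35, edgeR adjusted p = 0.0361). Leaving out 1 library ended the Exosc5 call in every case (adjusted p 0.0846 to 0.140) and the Zfc3h1 call in 5 of 6 (0.0652 to 0.136). Exosc4, another core subunit, was at 82.5, 169 and 126 against 2.65, 30.04 and 0.715 with no overlap and was not called. C1d was at 97.3, 172 and 316 against 332, 436 and 799, also with no overlap, and was not called. Over the list of 22, levels did not overlap in 6 genes (27.3%, against 28.3% of all tested genes), 3 higher and 3 lower in the labelled libraries.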

How the data were processed

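RNA from 6 libraries (3 per group) was analysed. The authors deposited estimated counts per gene and transcript that are not whole numbers, and a normalized table that holds each library's gene counts times 1 factor, named CPM although its columns do not sum as CPM would, and used here as signal only for its annotation. The submitters' processing notes name Trimmomatic 0.39, kallisto 0.44.0 and edgeR 3.28.1, with no role or order. No source used here names a genome build; 105 of 106 gene coordinates matched GENCODE M21 (GRCm38). Levels were computed as CPM from the counts; counts were rounded, filtered (filterByExpr), TMM-scaled and tested in edgeR 4.0.16 on R 4.3.3 with the group alone. DESeq2 1.42.0 and limma 3.58.1 were alternatives, and sums over genes were tested by exact permutation. The named genes were those past the threshold, the 12 most abundant, the 5 with the largest changes in each direction among genes at 5 CPM in both groups, the 3 just inside the level and the 3 just outside, and a list of known names (in that list, "Snhg" was taken as Snhg9); 8 other members were named after their values or positions were seen: Gm38250 (few counts in 1 group), Gm11655 (with its called partner Prkca), Gm27177 and Gm47738 (fewest words of their own), and 2810001G20Rik, Med9os, 1810013D15Rik and Gm13977 (start beside a coding gene). Members, lists and tests were chosen with earlier results of these data known. A correlation of same-numbered samples' deviations of −0.0151 to 0.00804 gave no pairing. Scripts were tested on simulated data.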

Additional observations from a re-analysis of the deposited data

How the results depend on the processing

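The count of called antisense genes was 3, 17 with DESeq2, 8 with limma-voom, 1 with the replicate block, 1 thinned to the smallest total and 1 with any 1 library left out; it was 2 or 3 under the other scalings and filters. Gm47252 was called in every one of these. Partner calls were 2, and 8 with DESeq2, 9 with no filter, 1 with the replicate block, library totals, upper quartile or thinning, and 0 to 1 with a library left out. Surveillance calls were 2, and 1 with the replicate block, library totals or upper quartile, and 0 to 1 with a library left out. The replicate numbers do not pair the samples; with the block the edgeR adjusted p was 0.0942 for D030047H15Rik, 0.146 for Bloc1s6os and 0.118 for Prkca. The median log2 fold change of the antisense genes, partly fixed by the choice of members, was 0.93, and 1.14 with limma-voom, 1.18 with the replicate block, 1.45 with library totals, 1.33 with upper quartile, 1.26 thinned, and 0.72 to 1.14 without a library. That of the partners was −0.39, and 0.21 with library totals, 0.074 with upper quartile, 0.053 with DESeq2 and −0.62 to −0.018 without a library. Rescaling moved the median of all genes by 0.147 (median of ratios), 0.386 (upper quartile) and 0.501 (library totals), and the 41 higher and 173 lower calls over all genes became 38 and 125, 55 and 89, and 68 and 79. The summed-level ratio was 2.08, and 1.48 TMM-scaled, 2.17 without the most abundant gene, 2.00 over same-numbered ratios (replicate block), and 1.97 to 2.20 without a library. Members numbered 106, and 150 at 2 CPM and 74 at 10 CPM. Over the log2 fold changes of the named genes, partners and surveillance genes under all alternatives, 687 values kept their direction and side of the threshold, 42 lost the threshold, 6 passed it and 30 turned sign. Signs turned, in genes that no test called, as follows. With library totals they were Gm12802 0.026, Gm26954 0.22, Samd11 0.21 and Zfp213 0.29; with upper quartile, Gm26954 0.11, Samd11 0.11 and Zfp213 0.074; thinned, Gm26954 0.016. With limma-voom they were A930016O22Rik −0.77, Ccdc142os −3.64, Thumpd3 −0.18 and Ftl1-ps1 −0.48; with the replicate block, A930016O22Rik −0.44, Ccdc142os −3.44, Rab10 −0.044 and Ftl1-ps1 −0.70; with no filter, Ccdc142os −0.046. Without a library the ranges were −1.38 to 0.0069 for A930001M01Rik, −0.49 to 0.99 for A930016O22Rik, −5.53 to 0.78 for Ccdc142os, −0.68 to 0.49 for Samd11, −1.01 to 1.08 for Thumpd3, −0.94 to 1.17 for Rab10, −0.21 to 0.83 for Dpf2, −11.5 to 0.54 for Zfp213 and −1.97 to 1.74 for Ftl1-ps1. The cause was not tested. Counts near 0 in the shallower libraries limit the low-level genes.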

Other observations

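Outside the rule of 5 CPM on an autosome, 2 further antisense genes passed the edgeR threshold. Tsix, the X-linked antisense gene of Xist, was at 79.7, 26.9 and 16.8 TMM-scaled CPM in the controls and at 2394, 2426 and 2353 in the libraries labelled Jun knockdown, without overlap (log2 fold change 5.86, edgeR adjusted p = 0.0042). The labels do not give the sex of the animals, and the sequencing kit keeps no strand, so Tsix counts can hold Xist reads. Gm48439, on chromosome 14 and below the level of 5 CPM, was at 0, 0.0122 and 0 in the controls and at 2.38, 0.969 and 4.92 in the labelled libraries (edgeR adjusted p = 0.0468). Of the names on the list of known antisense genes, Hotairm1 and Pax6os1 were at 0 in all 6 libraries, and Foxd1os was not in the table. Six3os1 and Otx2os1 are annotated under other types, so the rule did not take them.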
